A study of Mus musculus with 2 samples.

Results

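The Notch genes described here are 3 receptors (Notch1, Notch2 and Notch4), 4 ligands (Dll1, Dll4, Jag1 and Jag2) and 3 target genes (Hey1, Hey2 and Hes1). They were taken by name, 10 of the 28692 genes in the count tables, and every one of them had counts. They lie apart in the mouse genome (GRCm38): Notch1 on chromosome 2 from 26457903 to 26516663, Dll4 and Jag1 on the same chromosome from 119325784 to 119335962 and from 137081456 to 137116644, Jag2 on chromosome 12 from 112907819 to 112929776, Notch4 and Dll1 on chromosome 17, Notch2 and Hey1 on chromosome 3, Hey2 on chromosome 10 and Hes1 on chromosome 16. The tables come from CD31+ cells of the mouse mesentery at postnatal day 8, 1 library from control and 1 from Flcn KO pups (Cdh5-BAC-CreERT2 Flcn flox/flox, an inducible deletion driven by a promoter active in endothelium), each pooled from 3 mice of the C57BL/6 strain. The labels give 40 µg of 4-hydroxytamoxifen, injected on repeated days in the first week, for both libraries, and the genotype of the control pups is not given in the sources used here. The question was where each Notch gene was expressed along arterial, capillary, venous and lymphatic endothelium, and whether its level differed between the libraries.

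Notch signalling passes between touching cells. A ligand of the Delta-like or Jagged family on one cell binds a Notch receptor on its neighbour, the receptor is cut by gamma-secretase, and its intracellular part enters the nucleus and acts with the DNA-binding protein RBPJ. Genes of the Hes and Hey families, which encode transcriptional repressors, are classical targets. In the endothelium Dll4 and Notch1 are known for restraining sprouting, and Notch signalling is known for arterial identity. Several ligands also serve lymphocyte development and the recruitment of smooth muscle around arteries.

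Of the 10 genes, 8 had a promoter in the RefSeq table (GRCm38.p6), and Hey1 and Hes1 had none. The core of the RBPJ binding motif, TGGGAA on either strand, occurred in 25.6% of the 32851 promoters of 300 bases in that table. Among the 8 genes only Hey2 held it, with 2 matches, beginning 207 bases before the start site on the minus strand of the gene and 3 bases before it on the plus strand. The Hey2 window is shown because Hey2 was nearly confined to the arterial class among the 5 endothelial classes. It lies on the minus strand at chr10:30842781-30843033 and is written 5′ to 3′, with the motif letters (TTCCCA is the reverse complement) in capitals. A match is a description of the letters and not a binding site. The E-box CACGTG, a motif bound by basic helix-loop-helix proteins, occurred in 7.15% of all promoters and in none of the 8.
Hey2: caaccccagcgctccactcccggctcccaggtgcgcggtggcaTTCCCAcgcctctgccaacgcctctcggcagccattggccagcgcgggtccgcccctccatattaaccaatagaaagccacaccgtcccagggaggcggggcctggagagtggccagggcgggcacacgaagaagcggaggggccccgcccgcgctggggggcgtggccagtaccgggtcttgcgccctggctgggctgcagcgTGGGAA

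The tables held 6814 control and 4459 Flcn KO cells, with 64639756 and 60805779 UMIs (unique molecular identifiers, each standing for 1 captured RNA molecule) and medians of 7283 and 8587 per cell. Cells with at least 2 UMIs of Cdh5, the endothelial cadherin, were called endothelial: 566 of the control and 892 of the Flcn KO cells. With 1 library per genotype there was no replicate and no test of genotype, and all intervals are 95% intervals that cover counting error only. The pools differed in sex, which therefore cannot be told apart from genotype: Xist, transcribed from the inactive X chromosome, was counted 9 times in control and 63462 times in Flcn KO cells, and the sum of 4 genes of the Y chromosome was 15535 against 17. Flcn itself was at 10.2 and 9.74 CPM in endothelial cells (CPM is the number of UMIs of a gene per 1000000 UMIs summed over the cells of a group), but the position of the deleted part relative to the 3′ tag is not given in the sources used here, so this level does not check the deletion. The libraries shared 6 barcodes.

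Endothelial cells were split by the highest of 5 marker scores, and the summed level of each marker list was highest in its own class in both libraries. The arterial class had 94 control and 139 Flcn KO cells, the capillary class 167 and 61, the venous class 125 and 187, the class of high endothelial venules (HEV, the vessels through which lymphocytes enter lymph nodes) 48 and 71, and the lymphatic class 69 and 328, while 63 and 106 stayed unassigned. None of the 10 genes served as a marker. The classes were not free of other signals. HEV cells held lymphatic markers at 3250 and 3398 CPM in sum. In the median HEV cell of the control the lymphatic and the HEV list both stood at 18.6 per 10000 UMIs. In the Flcn KO library the lymphatic list was higher there, at 15.4 against 12.2. HEV thus names the highest score and not a pure cell type. HEV cells also held markers of group 3 innate lymphoid cells, described below, at 316 and 292 CPM. Venous cells held these markers at 124 and 127 CPM and capillary cells at 118 and 115 CPM. Arterial cells held them at 22.1 and 39.7 CPM and lymphatic cells at 14.8 and 11.6 CPM. Arterial cells held smooth muscle markers at 580 and 629 CPM in sum, and venous cells held arterial markers at 2035 and 1477 CPM, mostly Fbln5. At least 2 UMIs of Ptprc, the leukocyte gene, were held by 34 of 48 and 43 of 71 HEV cells. The same held for 37 of 125 and 35 of 187 venous cells. The markers of a class also differed between libraries. The HEV list summed to 13458 CPM in HEV cells of the control and to 5035 CPM in those of the Flcn KO library. The venous list summed to 3243 and 1916 CPM in venous cells, and the arterial list to 8980 and 7569 CPM in arterial cells. The part of these signals in the results below was not tested unless a value is given.

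Notch1, the main endothelial receptor, was found in every endothelial class. In the control library it stood at 266 CPM in arterial, 183 in venous, 160 in lymphatic, 153 in capillary and 60.2 CPM in HEV cells, and in the Flcn KO library at 221, 130, 76.3, 114 and 59.5 CPM in the same order. Arterial cells were highest in both libraries beyond counting error, whereas in the control library venous and lymphatic cells, and lymphatic and capillary cells, did not differ beyond it. Notch4, a receptor known mainly from endothelium, followed a steeper gradient. It was at 109 CPM in arterial and 63.0 CPM in capillary control cells but at 10.3, 6.17 and 2.95 CPM in venous, HEV and lymphatic cells, and in the Flcn KO library at 73.1, 51.0, 7.72, 6.77 and 1.90 CPM. Notch2 ran the other way. Arterial cells had the lowest level in both libraries (7.88 and 10.2 CPM) and HEV cells the highest (42.4 and 31.4 CPM), with lymphatic cells at 29.5 and 30.2 CPM. In the Flcn KO library HEV and lymphatic cells did not differ in Notch2 beyond counting error, nor did capillary and venous cells, or venous and arterial cells.

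Of the ligands, Jag1 reached the highest level, in arterial cells. It stood at 494 CPM in arterial, 34.2 in capillary, 30.7 in lymphatic and 18.1 CPM in HEV control cells, against 182, 31.3, 21.5 and 28.4 CPM in the Flcn KO library. Venous cells were next to arterial cells, with 340 Jag1 UMIs in 125 control and 298 (51.1 CPM) in 187 Flcn KO cells. Jag2 was at 90.4 CPM in arterial and 28.1 CPM in capillary control cells and at 8.39 CPM or less in the other classes. In the Flcn KO library Jag2 was at 24.5 CPM in arterial and 15.3 CPM in capillary cells, which did not differ beyond counting error. Dll4, the ligand of arterial and sprouting cells, was at 203 CPM in arterial, 54.6 in capillary, 41.9 in lymphatic, 17.4 in HEV and 7.55 CPM in venous control cells, and at 120, 62.6, 36.5, 18.1 and 15.1 CPM in the Flcn KO library. The venous class was thus lowest for Dll4 and below the lymphatic class in both libraries, although in the Flcn KO library it did not differ from HEV cells beyond counting error. Dll1 differed from the other ligands: in the control library venous cells led at 125 CPM, followed by arterial cells at 101, HEV cells at 57.0, lymphatic cells at 39.6 and capillary cells at 24.3 CPM. In the Flcn KO library arterial cells led at 87.1 CPM, HEV, venous and capillary cells lay between 50.2 and 58.7 CPM without differing beyond counting error, and lymphatic cells were lowest at 22.6 CPM.

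The 3 targets had unlike patterns. Hey1 was at 192 CPM in arterial, 66.4 in capillary, 24.2 in lymphatic, 4.72 in HEV and 3.07 CPM in venous control cells, and at 152, 88.1, 39.5, 7.58 and 5.66 CPM in the Flcn KO library, the same order. Hey2, whose promoter is printed above, had 146 UMIs (76.7 CPM) in control and 177 UMIs (48.8 CPM) in Flcn KO arterial cells. Elsewhere in the endothelial classes it had 7 and 1 UMIs in capillary, 4 and 1 in HEV and 0 and 1 in lymphatic cells. Venous cells had 0 Hey2 UMIs of 3577737 and of 5826002, where 3 counts would have been 0.839 and 0.515 CPM. Hes1 was lowest, not highest, in arterial cells of the Flcn KO library (136 CPM) and low in those of the control library (146 CPM, above only HEV at 120 CPM). Control lymphatic cells led at 364 CPM, with 243 CPM in venous and 216 CPM in capillary cells, and Flcn KO capillary cells led at 286 CPM, with 260 CPM in lymphatic, 225 in HEV and 191 CPM in venous cells.

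**Figure D1:**
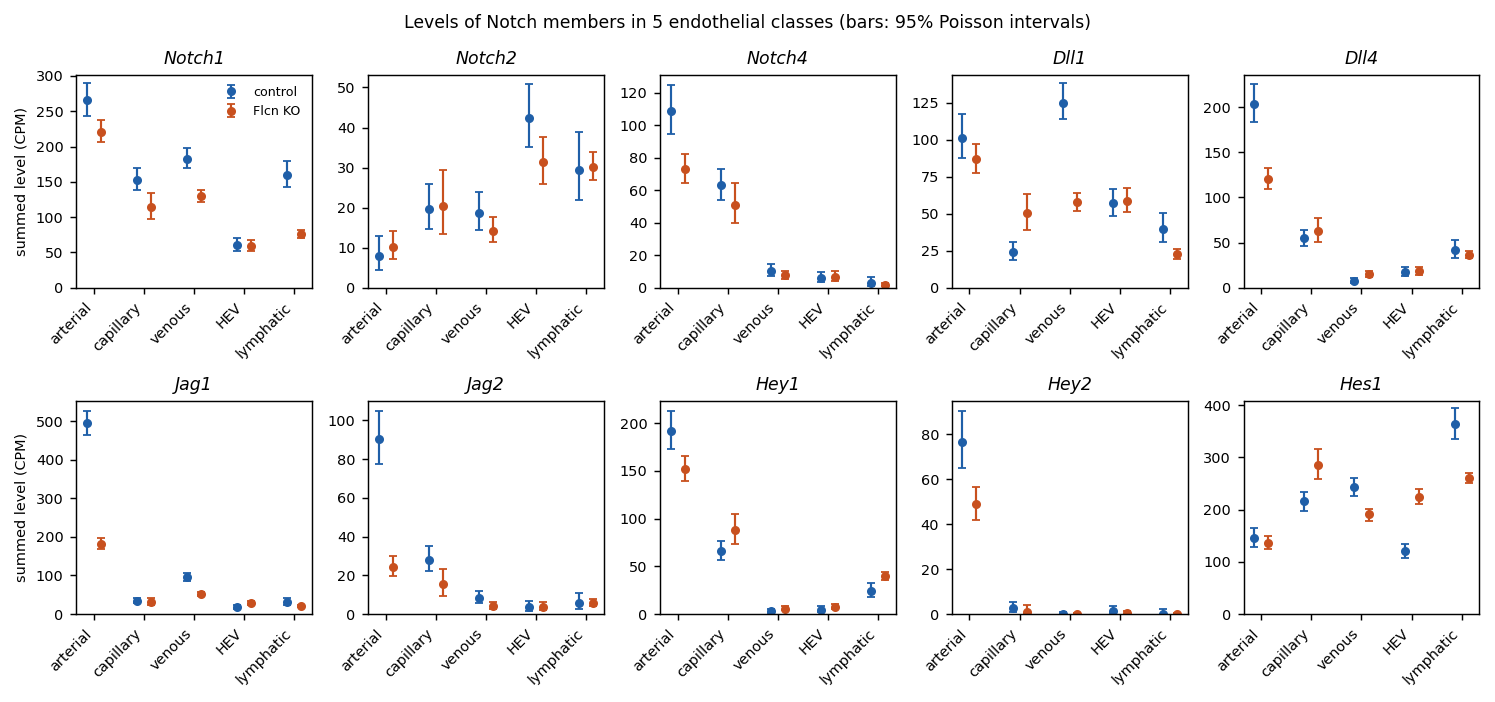
Summed level (CPM, linear axis from 0) of each of the 10 genes in the 5 endothelial classes, blue for the control and orange for the Flcn KO library; bars are 95% Poisson intervals. Notch4, Dll4, Jag1, Jag2, Hey1 and Hey2 peak in the arterial class in both libraries, and arterial Jag1 stands at 494 CPM in the control and 182 CPM in the Flcn KO library.

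Arterial and venous cells of the same library were then compared, calling a gene past 2-fold when it had at least 50 counts over both classes. All 10 genes had enough counts in both libraries. In each library 6 of the 10 were at least 2-fold higher in arterial cells, and they were the same 6: Notch4, Dll4, Jag1, Jag2, Hey1 and Hey2. Of all 9054 and 9922 genes tested, 5.11% and 4.68% were called in that direction. Only Notch2 was called lower in arterial cells, in the control library alone, where 7.74% of all genes were; 0 of 10 were called lower in the Flcn KO library, against 7.14% of all genes. The median log2 ratio over the 10 genes was 2.87 in the control and 2.18 in the Flcn KO library, beside -0.04 and -0.14 over all genes tested. The set of 6 was also the same after leaving out arterial cells with 2 or more smooth muscle UMIs or venous cells with much Prox1.

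Hey1 showed the widest arterial-venous ratio with counts on both sides. It was 62.6-fold higher in arterial than venous control cells (interval 34.6 to 126) and 26.9-fold higher in the Flcn KO library (interval 18.9 to 39.5). Hey2 had no venous count, and set against 3 counts in the venous class its ratio was 91.5-fold and 94.8-fold. These values leave out the counting error of the arterial side. Dll4 was 27.0-fold higher in arterial control cells (interval 18.2 to 41.4) but 7.94-fold higher in the Flcn KO library (interval 6.30 to 10.1), its arterial level being lower there and its venous level higher. Jag2 had ratios of 10.8 (interval 7.29 to 16.5) and 5.96 (interval 3.76 to 9.78), Notch4 of 10.5 (interval 7.39 to 15.4) and 9.46 (interval 6.88 to 13.3), and Jag1 of 5.20 (interval 4.59 to 5.90) and 3.56 (interval 3.10 to 4.09). For Notch1 the ratios were 1.45 (interval 1.29 to 1.63) and 1.70 (interval 1.54 to 1.88). Dll1 had a ratio on either side of 1, at 0.808 (interval 0.679 to 0.959) in control and 1.51 (interval 1.29 to 1.77) in the Flcn KO library. Hes1 was lower in arterial than venous cells in both, at 0.599 and 0.715. The control value of Notch2, 0.421 (interval 0.223 to 0.745), rested on 15 arterial counts and turned to a log2 ratio of 0.02 once cells with 2 or more Ptprc UMIs were left out, when 9 of the 10 genes, without Notch2, still had 50 counts.

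**Figure D2:**
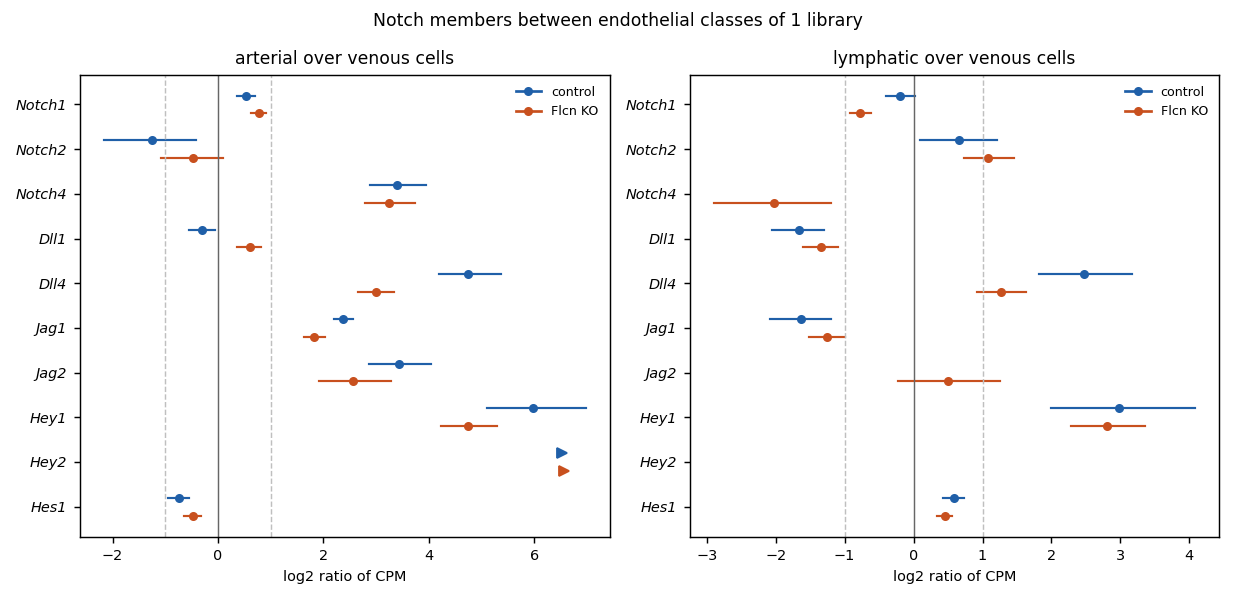
Log2 ratio of CPM of the genes with at least 50 counts, for the control (blue) and Flcn KO (orange) library. Arterial over venous cells are at left and lymphatic over venous cells at right. Bars are 95% intervals, triangles are ratios against 3 counts where the venous class had none, and dashed lines mark 2-fold. Hey1 lies at 5.97 and 4.75 at left and at 2.98 and 2.80 at right, and Dll1 and Jag1 lie below -1 at right in both libraries.

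Lymphatic vessels arise for the most part from veins, although progenitors of other origin are also known. The Notch genes of lymphatic and venous cells were set side by side next. In the control library 7 genes could be compared: Dll4 and Hey1 were at least 2-fold higher in lymphatic cells, a direction in which 6.40% of all genes were called, and Dll1 and Jag1 were at least 2-fold lower, beside 9.38% of all genes. In the Flcn KO library 9 could be compared, with Notch2, Dll4 and Hey1 higher (7.39% of all genes) and Notch4, Dll1 and Jag1 lower (9.91% of all genes). Median log2 ratios over the genes compared were 0.58 and 0.45, beside 0.05 and -0.09 over all genes tested. Dll4 was 5.56-fold higher in lymphatic control cells (interval 3.52 to 9.01) and 2.41-fold higher in the Flcn KO library (interval 1.90 to 3.09). Hey1 was 7.88-fold higher (interval 3.98 to 17.0) and 6.98-fold higher (interval 4.88 to 10.3). The control value for Hey1 rested on 41 lymphatic and 11 venous counts, and 5 cells held 58.5% of the lymphatic ones. Dll1 was at 0.315 and 0.392 of its venous level in lymphatic cells, and Jag1 at 0.323 and 0.419. A Delta-like ligand thus stood on each side of this pair, Dll4 with the lymphatic and Dll1 with the venous class. Without Prox1-rich venous cells Notch2 was no longer past 2-fold in the Flcn KO library, at a log2 ratio of 0.82. The control Hey1 call was lost without cells holding 2 or more Ptprc UMIs and at a score margin of 0.8, and the Flcn KO Notch4 call with classes by clustering, where the genes had fewer than 50 counts; their log2 ratios were then 2.60, 2.41 and -2.08.

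Of the 10 genes in the 5 endothelial classes, among those with at least 50 counts, the differences between the libraries were largest for the Jagged ligands of arterial cells. Jag1 had 940 UMIs in 94 control cells and 660 UMIs in 139 Flcn KO cells, a Flcn KO level of 0.368 of the control level (interval 0.333 to 0.407). Jag2 had 172 and 89 UMIs, a ratio of 0.271 (interval 0.208 to 0.353). They were the only 2 of the 10 genes called lower in arterial cells, where 4.15% of all genes were, and 0 of 10 were called higher, beside 2.72% of all genes. The other 8 ratios lay closer to 1. Dll4 was at 0.590 (interval 0.513 to 0.678), Hey2 at 0.636 (interval 0.508 to 0.797), Notch4 at 0.671 (interval 0.558 to 0.809), Hey1 at 0.792 (interval 0.693 to 0.907) and Notch1 at 0.830 (interval 0.742 to 0.930). The intervals of Dll1 (0.859), Hes1 (0.935) and Notch2 (1.29) held 1. The median log2 ratio was -0.46 over the 10 genes and -0.13 over all genes tested. With ratios centred on that second median, Jag1 lay at -1.31 and Jag2 at -1.74.

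Jag1 was spread over arterial cells and not carried by a few. The share of arterial cells expected to hold it after thinning to 5000 UMIs was 86.2% in the control and 56.1% in the Flcn KO library (92 of 94 and 125 of 139 cells before thinning). The 5 richest cells held 20.7% and 13.2% of its UMIs. Thinned shares, here and below, are expected values that leave out cells under 5000 UMIs. These were 3 control and 2 Flcn KO arterial cells, and 472 and 117 B cells. In B cells, taken as a type that should lack Jag1, the thinned shares were 0.147% and 0.0701%, with median depths of 6302 and 8094 UMIs against 14732 and 19529 in arterial cells. The median arterial cell held 4.57 Jag1 UMIs per 10000 in the control and 1.60 in the Flcn KO library. Jag2 was found in 34.0% and 12.2% of thinned arterial cells. The arterial class is mixed, and its makeup differed: 61 of 94 control cells but 55 of 139 Flcn KO cells lay above the common median of Cxcl12, a chemokine gene of small arteries. Jag1 was lower in the Flcn KO library on both sides of that median, at ratios of 0.454 (interval 0.397 to 0.519) above it and 0.349 (interval 0.296 to 0.411) below it, and so was Jag2, at 0.368 and 0.378. Dll4 was lower above it, at 0.603 (interval 0.503 to 0.721), while below it the ratio was 0.915 (interval 0.697 to 1.21); whether these differ was not tested. With only the 65 control and 65 Flcn KO arterial cells that had under 2 smooth muscle UMIs, the log2 ratios of Jag1 and Jag2 were -1.15 and -1.64, beside -1.44 and -1.87 in all arterial cells.

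**Figure D3:**
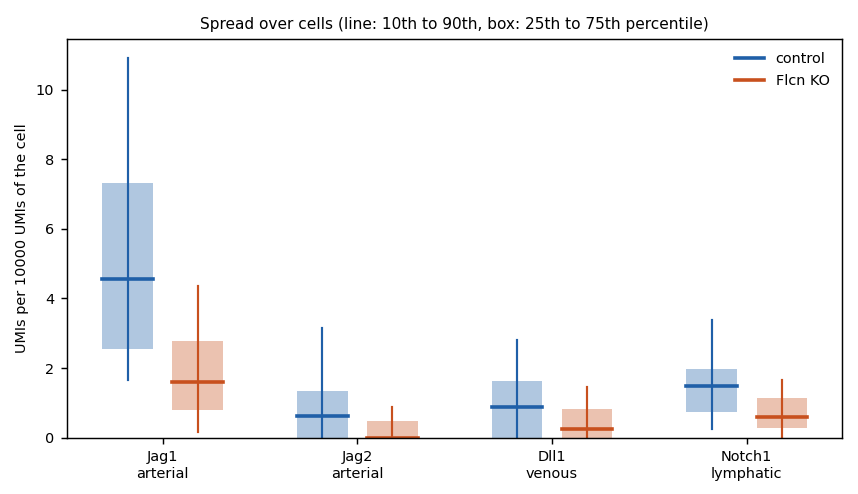
Spread over cells of 4 genes, as UMIs per 10000 UMIs of the cell, in the class where the library ratio passed 2-fold; blue is control and orange Flcn KO, thick lines are medians, boxes span the 25th to 75th and thin lines the 10th to 90th percentile of cells. The Jag1 median is 4.57 in control and 1.60 in Flcn KO arterial cells, and the 75th percentile of the Flcn KO cells, 2.78, lies near the 25th percentile of the control cells, 2.55.

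In venous cells Dll1 and Jag2 were the genes past 2-fold, both lower, of 8 compared (4.21% of all genes were called lower). Dll1 had 449 control and 336 Flcn KO UMIs, a ratio of 0.460 (interval 0.398 to 0.531), and Jag2, with only 30 and 24 UMIs, a ratio of 0.491 (interval 0.275 to 0.869). The Jag2 call was lost without the cells called doublets and under several other alternatives, while the Dll1 call was lost only when Prox1-rich cells were left out, described next. Dll1 was found in 40.3% and 20.9% of thinned venous cells, beside 0.473% and 1.34% of B cells. Jag1 (0.538, interval 0.459 to 0.631) and Notch1 (0.708, interval 0.637 to 0.787) were lower too. Dll4 went the other way, from 27 UMIs in control to 88 UMIs in Flcn KO venous cells, with an interval of 1.29 to 3.21 for the ratio, and fell just short of the call with 1 count added (log2 ratio 0.96), so 0 of 8 were called higher (2.49% of all genes). Dll4 was called higher, however, without cells holding 2 or more Ptprc UMIs, with a score margin of 0, with classes by clustering, with CPM taken without mitochondrial, ribosomal protein and hemoglobin genes, with a mean over cells and after centring. Venous cells with at least 7 UMIs of Prox1, the lymphatic transcription factor, were more frequent in the Flcn KO library, and leaving them out kept 123 of 125 control and 154 of 187 Flcn KO cells. Dll1 was then at a ratio of 0.511 (log2 ratio with 1 count added -0.97, short of 2-fold), while Jag1 at 0.484 and Dll4 at 2.06 passed 2-fold. The median log2 ratio was -0.46 over the 8 genes and -0.08 over all genes tested.

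Before centring on the median of all genes, lymphatic cells differed most in Notch1. It had 271 UMIs in 69 control and 722 UMIs in 328 Flcn KO cells, a ratio of 0.477 (interval 0.414 to 0.550), and it was the only 1 of 8 genes called lower, where 7.05% of all genes were. The median over all genes tested was -0.21 in this comparison, and with ratios centred on it Notch1 lay at -0.86, short of 2-fold. Hey1 then lay at 0.89, slightly further out than Notch1 and also short of 2-fold. Thinned to equal depth, Notch1 was found in 53.6% of control and 30.4% of Flcn KO lymphatic cells, and in B cells, which hold little of it, in 6.26% and 10.1%. It was lower on both sides of the median of Lyve1, the marker of initial lymphatics, at 0.504 (interval 0.419 to 0.607) and 0.435 (interval 0.348 to 0.547). Dll1 (0.571, interval 0.432 to 0.763), Jag1 (0.698, interval 0.513 to 0.966) and Hes1 (0.716, interval 0.655 to 0.783) were lower by less. Of their control UMIs (67, 52 and 616), the 5 richest cells for each gene held 50.7%, 38.5% and 33.1%. Hey1 was higher, at 1.63 (interval 1.18 to 2.31), without reaching 2-fold, and 0 of 8 were called higher, beside 3.48% of all genes. Without cells holding 2 or more Ptprc UMIs Hey1 was called higher, beside 3.70% of all genes. The Hey1 ratio was 2.86 (interval 1.70 to 5.19, from 15 control counts) in cells with Lyve1 above the median and 0.911 (interval 0.595 to 1.45) in the others, a difference that was not tested. The median log2 ratio was -0.35 over the 8 genes. Markers of other classes also differed in lymphatic cells: the arterial list summed to 794 CPM in the control and 407 CPM in the Flcn KO library (Gja4 456 and 35.3 CPM, Stmn2 128 and 20.8 CPM) and the HEV list to 86.8 and 18.9 CPM, and their part in the Notch1 ratio was not tested.

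The capillary class was small in the Flcn KO library, with 61 cells against 167. There of 9 genes Dll1 alone passed 2-fold, with 24.3 CPM against 50.2 CPM in the Flcn KO library, a ratio of 2.07 (interval 1.45 to 2.95), where 2.46% of all genes were called higher. It rested on 64 and 69 UMIs, and 5 Flcn KO cells held 58.0% of theirs. The Dll1 call was lost without cells holding 2 or more Ptprc UMIs and with classes drawn by clustering, where Hey1 (higher) and Jag2 (lower) were called instead. No gene was called lower, 0 of 9, beside 4.29% of all genes, although Jag2 had a ratio of 0.544 (interval 0.318 to 0.894) and Notch1 of 0.747 (interval 0.618 to 0.901). Hey1 and Hes1 were both at 1.33, with intervals of 1.04 to 1.68 and 1.16 to 1.51. The 5 richest Flcn KO cells for each gene held 52.9% of the Hey1 and 39.7% of the Hes1 UMIs. Median log2 ratios were 0.07 over the 9 genes and -0.07 over all genes tested. In HEV cells Hes1 was at 120 and 225 CPM, a ratio of 1.87 (interval 1.64 to 2.13), and Jag1 at 18.1 and 28.4 CPM, a ratio of 1.57 (interval 1.11 to 2.24). Notch1 (0.989), Dll1 (1.03) and Dll4 (1.04) had intervals that held 1.

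**Figure D4:**
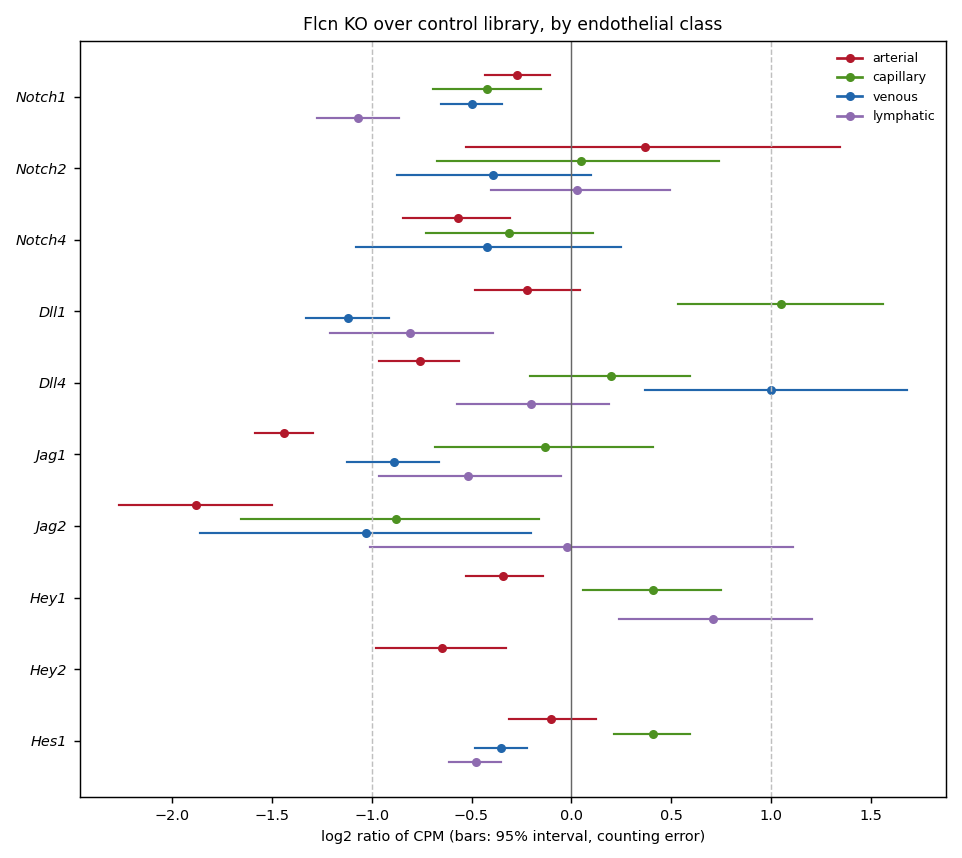
Log2 ratio of the Flcn KO over the control CPM for each gene with at least 50 counts, in arterial (red), capillary (green), venous (blue) and lymphatic (purple) cells; bars are 95% intervals for counting error and dashed lines mark 2-fold. Jag1 and Jag2 lie at -1.44 and -1.88 in arterial cells, Notch1 lies below 0 in all 4 classes, and Dll1 lies above 0 only in capillary cells.

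The Notch1 ratio lay below 1 beyond counting error in 4 of the 5 classes, but centred on the median of all genes its log2 value was only -0.14 in arterial cells, beside -0.35 in capillary, -0.42 in venous and -0.86 in lymphatic cells. Over all endothelial cells together the values differed from those within classes, and the classes took different shares there: capillary cells were 29.5% of control but 6.84% of Flcn KO endothelial cells, and lymphatic cells 12.2% and 36.8%. Over all endothelial cells Notch4 was at a ratio of 0.498, although it was at 0.671 in arterial and 0.809 in capillary cells. Hey1 was at 0.973 (interval 0.883 to 1.07) over all cells, with 0.792 in arterial and 1.63 in lymphatic cells behind it. Jag1 was at 0.468 and Jag2 at 0.351 over all cells.

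Dll4 and Hey1 were also compared within a class, cell by cell. Arterial cells with a Dll4 UMI held Hey1 at 211 CPM in the control and 167 CPM in the Flcn KO library, and arterial cells without one at 59.7 and 78.2 CPM, ratios of 3.54 (interval 2.08 to 6.54) and 2.13 (interval 1.57 to 2.95). Capillary cells gave ratios of 1.77 (interval 1.29 to 2.45) and 2.32 (interval 1.44 to 3.91) for the same split. Jag1 did not differ with Dll4 in arterial cells beyond counting error (0.900 and 1.07), nor did Hey2 (0.886 and 1.61) or Hes1 (1.16 and 0.857). Cells with a Dll4 UMI were deeper, with medians of 15197 and 21655 UMIs against 10499 and 14538 in arterial cells without one, and the part of depth was not tested. At least 1 receptor and at least 1 ligand were found in the same cell in 93 of 94 control and 133 of 139 Flcn KO arterial cells, in 117 of 125 and 153 of 187 venous cells, and in 49 of 69 and 229 of 328 lymphatic cells. All 4 ligands were found together in 34 of 94 control arterial cells but in 24 of 139 in the Flcn KO library.

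Prox1 is the factor that sets lymphatic fate, and 85 Flcn KO and 20 control endothelial cells outside the lymphatic class held at least 7 Prox1 UMIs. In the Flcn KO library these cells held Dll1 at 52.3 CPM and Jag1 at 46.9 CPM, beside 61.2 and 46.4 CPM in venous cells with fewer Prox1 UMIs and 2.31-fold and 2.19-fold above lymphatic cells, while Hey1 at 12.6 CPM lay 2.33-fold above the venous level (interval 1.39 to 4.02) and at 0.319 of the lymphatic level (interval 0.230 to 0.433). These 85 cells were not all venous, since leaving them out took the venous class from 187 to 154 cells, and they held venous markers at 902, HEV markers at 579, arterial markers at 885, lymphatic markers at 1317 and erythroid markers at 3625 CPM in sum. The part of that mixture in their Notch gene levels was not tested.

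The 10 genes were also measured in the 8 classes of cells without Cdh5 UMIs. Notch4 and Dll4 were low there, with at most 2.74 CPM in T, B, group 3 innate lymphoid, macrophage and dendritic cells in both libraries and at most 8.53 CPM in any of the 8 classes (Notch4 in Flcn KO neutrophils, from 1 UMI). Hey2 was at 13.5 and 24.5 CPM in smooth muscle cells and pericytes (9 UMIs in each library) and had 5 UMIs in control and 2 UMIs (5.38 CPM) in Flcn KO fibroblasts. Notch2, the receptor that marginal zone B cells need, was at 88.9 and 63.6 CPM in B cells, 73.3 and 73.0 CPM in group 3 innate lymphoid cells, and 72.2 and 54.6 CPM in smooth muscle cells. Notch1, needed for T cell fate, was at 46.6 CPM in T cells of both libraries and at 14.4 and 21.6 CPM in B cells. Dll1 was at least as high in group 3 innate lymphoid cells, which make the cytokine Il22, as in arterial cells, with 426 UMIs (113 CPM) in 354 control and 369 UMIs (149 CPM) in 269 Flcn KO cells, whereas T cells had 0.443 and 0.483 CPM. This innate lymphoid class was not pure. It held T cell markers at 1137 and 1086 CPM in sum, above its own list at 741 and 785 CPM. B cell markers stood there at 272 and 202 CPM, and the part of this mixture in its levels was not tested. Jag1 was at 76.7 and 101 CPM in smooth muscle cells, in 13 of 72 and 9 of 44 cells, and Hes1 was high there too, at 266 and 281 CPM. That class also held fibroblast markers at 1354 CPM in the control and 8666 CPM in the Flcn KO library and B cell markers at 1162 and 1274 CPM, so its levels were not compared between libraries.

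**Figure D5:**
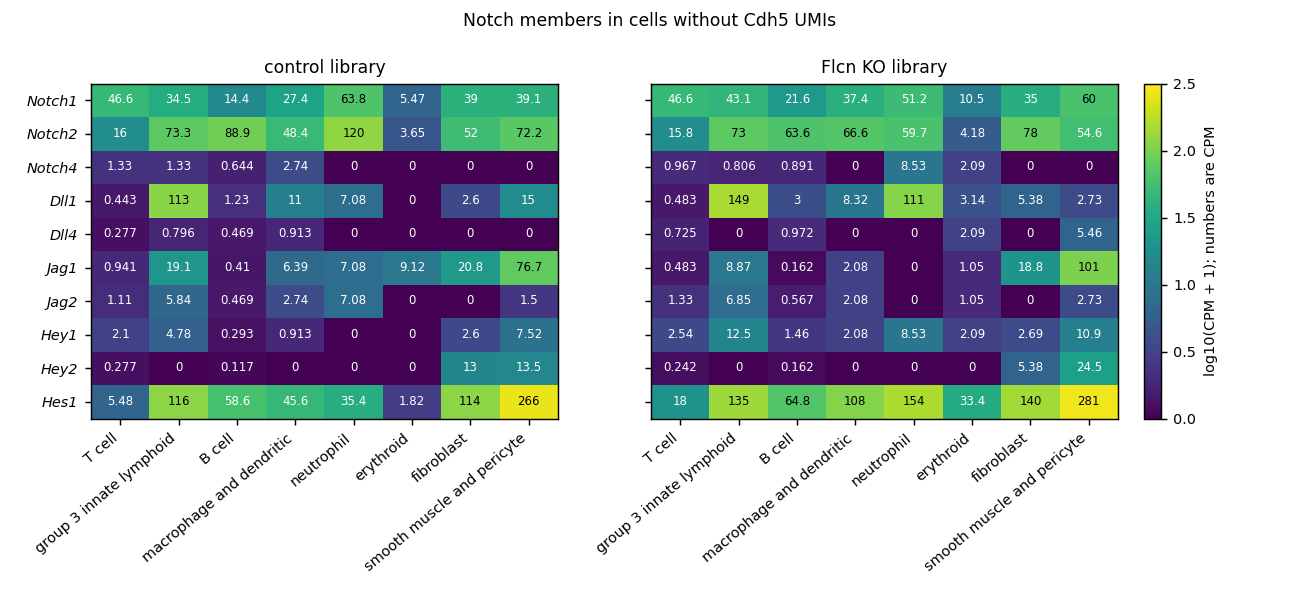
Levels of the 10 genes in 8 classes of cells without Cdh5 UMIs, control at left and Flcn KO at right. Color is log10(CPM + 1) and the printed numbers are CPM. Class names give the highest marker score and not a pure cell type. Dll1 stands out in group 3 innate lymphoid cells (113 and 149 CPM), Notch2 in B cells (88.9 and 63.6 CPM) and Hes1 in smooth muscle cells (266 and 281 CPM); the 111 CPM of Dll1 in Flcn KO neutrophils rests on 13 UMIs in 2 cells.

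Another 46 genes of the pathway (modifying enzymes, gamma-secretase, coactivators and further targets) were counted in the same comparisons. Between arterial and venous cells the same genes were called in both libraries: of 34 and 35 tested, Efnb2 and Unc5b were higher in arterial cells (5.11% and 4.68% of all genes) and Lfng and Maml3 lower (7.74% and 7.14% of all genes). Efnb2, the ephrin of arteries, was 4.42-fold and 5.56-fold higher in arterial cells, and Lfng, a glycosyltransferase that changes the ligand preference of Notch, was at 0.352 and 0.348 of its venous level. Lymphatic cells stood apart from venous cells in Dtx1, a Deltex family gene (245 and 210 CPM against 1.40 and 2.75 CPM), and in Mfng, a further glycosyltransferase (1.77 and 3.59 CPM against 107 and 160 CPM). In the control library 5 of 33 were higher in lymphatic than venous cells, beside 6.40% of all genes, with Efnb2, Unc5b, Psen2 and Dtx1 among them. Another 2 of 33 were lower (Nrarp and Mfng), beside 9.38% of all genes. In the Flcn KO library 3 of 36 were higher (Unc5b, Psen2 and Dtx1, beside 7.39% of all genes) and 4 lower (Nrarp, Mfng, Neurl1b and Maml3, beside 9.91%). Between libraries Unc5b was the only 1 of 32 called in arterial cells, where 4.15% of all genes were called lower, with 131 CPM against 48.8 CPM in the Flcn KO library (ratio 0.373, interval 0.306 to 0.454). In capillary cells Unc5b and Lfng were lower of 30 tested (4.29% of all genes), in venous cells Unc5b and Psen2 were higher of 34 (2.49% of all genes), and in lymphatic cells Psen2 was higher (3.48% of all genes) and Efnb2 and Rfng lower (7.05% of all genes) of 34. Nothing particular to the pathway is read from these counts. Psen2, a subunit of gamma-secretase, was higher in the Flcn KO library in each of the 4 classes, with ratios of 1.97 (arterial), 1.80 (capillary), 2.62 (venous) and 2.58 (lymphatic). Control lymphatic cells held Efnb2 at 186 CPM and Flcn KO ones at 42.7 CPM, a ratio of 0.229 (interval 0.198 to 0.267). The target Nrarp, a feedback inhibitor, did not pass 2-fold between libraries in any of these 4 classes, with ratios from 0.812 to 1.30.

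The genes most like each member were sought over 24 points, the classes of each library with at least 30 cells, among 3561 genes with at least 100 CPM in some point. Points from the same library share depth and preparation, and the correlations of log2(CPM + 10) are descriptions. Hey1 was most like Dll4 (Pearson r = 0.93), and Dll4 had Ptprm at 0.94 and Hey1 at 0.93. Notch4 was most like Sox17 (0.96) and Eogt (0.95), and Jag2 most like Eogt and Notch4 (0.92 each). Notch1 had Utrn at 0.94 and Efnb2 at 0.92, Jag1 had Fam135a at 0.92, and Dll1 had Plcb4 at 0.90. Hey2 was most like Gja5 (0.89), and Hes1 most like Ube2e3 (0.91). Sox17 and Gja5 were markers in the arterial score, so those likenesses are in part built in. Notch2 was the member least like the rest, with r between -0.49 (Notch4) and 0.31 (Hes1).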

How the data were processed

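Mesenteric CD31+ cells, isolated on magnetic beads at postnatal day 8, were profiled with 10x Chromium 3′ v3 chemistry, 1 library per group. The authors deposited UMI counts per gene and cell for each library as whole numbers, which the submitters' processing notes trace to Cell Ranger 3.0 and the mm10 build; no cell annotation was used here, and 0 columns belonged to no sample.

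Counts were read in Python 3.11.15 (numpy 2.4.6, scipy 1.17.1, pandas 2.3.3, scanpy 1.11.5, matplotlib 3.10.9) with gene positions from GENCODE M21. Cells with at least 2 Cdh5 UMIs were endothelial and cells with 0 non-endothelial; 164 control and 137 Flcn KO cells with 1 were left out. The class of a cell was its highest mean marker z-score, if at least 0.3 above the next. Counts were summed per class and library and given as CPM with exact Poisson intervals, and ratios with exact conditional intervals. Thinned shares are those expected by formula at 5000 UMIs, with cells under that depth left out. A 2-fold call needed 50 counts over both groups, with 1 count added before scaling. No test was possible with 1 library per group. The 10 genes and all lists were chosen with earlier results of these data known, and all 10 are named; of 49 further pathway genes, 3 (Gja4, Gja5 and Sox17) were also markers and were left out of the counts, and the text names those past 2-fold, except 1 that is not reported here. Scrublet called 142 and 37 doublets, which were kept and dropped only in an alternative. Other alternatives changed filters on cells, the class rule, the scaling, the fold and the count minimum, and 3 were chosen after seeing the data: arterial cells with fewer than 2 smooth muscle UMIs, venous cells without much Prox1, and centring on the median of all genes. The scripts were tested on simulated data. The Hey2 promoter came from the RefSeq table for GRCm38.p6.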

Additional observations from a re-analysis of the deposited data

Results flagged for a closer look

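For 5 of the 10 genes the ratio between the Flcn KO and control libraries lay on opposite sides of 1, beyond counting error, in different endothelial classes. The differences between classes were not tested, since each class came from the same library per genotype. On the log2 scale Dll1 lay at 1.05 in capillary cells but at -1.12 in venous and -0.81 in lymphatic cells. Dll4 lay at -0.76 in arterial and 1.0 in venous cells. Jag1 lay at 0.65 in HEV cells and at -1.44 in arterial, -0.89 in venous and -0.52 in lymphatic cells. Hey1 lay at -0.34 in arterial cells and at 0.41 in capillary and 0.71 in lymphatic cells. Hes1 lay at 0.41 in capillary and 0.90 in HEV cells and at -0.35 in venous and -0.48 in lymphatic cells. Several capillary and lymphatic values drew much of their counts from few cells, as given above. The HEV marker list also differed between the libraries, and its part in the HEV values was not tested.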

How the results depend on the processing

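The same 6 genes were called higher in arterial than venous cells in both libraries under every alternative (at 1.5-fold Notch1 and Dll1 joined them in the Flcn KO library), and Jag1 and Jag2 were called lower in Flcn KO arterial cells under every one. Of 713 member ratios recomputed, 668 moved by less than their counting interval, 44 moved further and 1 turned. The ratio that turned was Notch2 in arterial over venous control cells, from -1.18 to 0.02 on the log2 scale without cells holding 2 or more Ptprc UMIs. A turn was counted only for ratios at least 2-fold apart in the main analysis. Changes of sign among smaller ratios were not counted. Counts of genes past 2-fold between libraries were less steady, and the cause was not tested. In capillary cells (1 gene) the count became 0 without cells holding 2 or more Ptprc UMIs and 2 with at least 4 Cdh5 UMIs, with a score margin of 0, with classes by clustering, with a mean over cells and at 1.5-fold. In venous cells (2 genes) it became 1 without called doublets and with at least 4 Cdh5 UMIs, 3 with a score margin of 0, with classes by clustering and with a mean over cells, and 4 at 1.5-fold. In lymphatic cells (1 gene) it became 2 without cells holding 2 or more Ptprc UMIs, 3 at 1.5-fold and 0 after centring. In arterial cells (2 genes) it became 4 at 1.5-fold. Centring moved the share of all calls that were higher from 39.6% to 49.8% for arterial over venous Flcn KO cells, from 39.6% to 53.2% between libraries in arterial cells and from 33.1% to 55.2% in lymphatic cells. No paired analysis was possible because each group had 1 library. Genes with few counts, such as Jag2 in venous cells, are limited by counting error.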

Other observations

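Cycling endothelial cells, those with at least 2 UMIs of the proliferation genes Mki67 and Top2a together, held less of the arterial Notch genes than the others in both libraries. There were 117 cycling of 566 control and 173 of 892 Flcn KO endothelial cells. Hey1 was at 0.344 of the level of the other cells in the control (interval 0.278 to 0.423) and 0.460 in the Flcn KO library (interval 0.395 to 0.535), Notch4 at 0.538 and 0.458, Dll4 at 0.577 and 0.607, Jag2 at 0.398 and 0.690, Jag1 at 0.561 and 0.787, and Hey2 at 0.595 and 0.467. Notch2 did not differ beyond counting error (1.04 and 0.968). The classes of the cycling cells were not matched to those of the others, and cycling cells were deeper, with median UMIs of 35625 and 43291 against 14415 and 22507.

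Some Notch genes also differed between libraries in cells without Cdh5. Hes1 in T cells had 99 UMIs among 2210 control and 149 among 975 Flcn KO cells, a CPM ratio of 3.29 (interval 2.53 to 4.28), and in B cells at 58.6 and 64.8 CPM. The T cells also held lymphatic markers at 7.69 and 23.4 CPM in sum and erythroid markers at 47.2 and 88.2 CPM, and their part was not tested. Notch2 in B cells was at 88.9 and 63.6 CPM, a ratio of 0.715 (interval 0.655 to 0.780). In erythroid cells Hes1 had 1 UMI in the control and 32 in the Flcn KO library, for a CPM ratio of 18.3 (interval 3.06 to 747). Lymphatic markers summed to 139 and 329 CPM and pan-endothelial markers to 87.5 and 137 CPM in these erythroid cells, and their part was not tested.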
